A study of Mus musculus with 6 samples.

Results

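The 10 genes described here are MAP kinase phosphatases of the dual-specificity (DUSP) family: Dusp1, Dusp2, Dusp4, Dusp5, Dusp6, Dusp7, Dusp8, Dusp10, Dusp14 and Dusp16. They were found by gene symbol among 20665 genes, and all 10 were among the 16141 that passed the filter on low values. The family was chosen by a proposal made with the irradiated against non-irradiated values of these libraries already known, in which Dusp4 and Dusp5 stood among the leading genes. Differences between those groups are therefore given below as a description, and the p-values beside them come from fits over all genes and carry no independent weight for the family.

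RNA was measured by sequencing in 6 libraries of primary fibroblasts of the gingiva, cells that build the connective tissue of the gum, isolated from the upper jaw of wild-type C57BL/6 mice and grown in medium with serum and antibiotics. In 3 libraries the cells, lying at the bottom of a 35-mm dish, had received light of an Er:YAG laser at 3.9 J/cm2 from 25 cm, an infrared source whose energy water takes up strongly. The other 3 libraries came from cells without laser treatment, and all 6 carry a time of 3 h. Separate cultures or animals are not named in the labels, and the p-values thus measure a spread between libraries that may be technical. Libraries with the same number, 1 non-irradiated and 1 irradiated, are treated as a pair; the labels give the numbers but do not say what a shared number stands for.

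MAP kinases (ERK, JNK and p38) are switched on when a pair of neighbouring threonine and tyrosine residues in the kinase is phosphorylated, and the DUSP phosphatases switch them off by removing both phosphates. Many of the phosphatase genes are themselves transcribed when MAP kinases are active, so the family works as negative feedback, and individual members differ in which kinase they prefer and in whether they reside in the nucleus or the cytoplasm. In fibroblasts several members are known to be induced within minutes to hours by serum and growth factors.

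Each library held 45178137 to 59904715 reads assigned to genes. The 9 fibroblast markers made up 3.6% of all normalized counts (read counts divided by a size factor of the library). Of 3 skeletal muscle markers looked up 0 matched a gene of the table, and of 7 keratinocyte markers 2 did (not Krt5, Krt14, Krt15, Krt6a or Trp63), with a summed level of 6.77 to 18.3 normalized counts in non-irradiated and 5.77 to 19.6 in irradiated libraries. The summed level of 5 endothelial markers was 156 to 617 and 197 to 600 normalized counts, that of 2 leukocyte markers 26.4 to 49.9 and 30.8 to 59.7, and that of 3 Schwann cell and melanocyte markers 950 to 1608 and 825 to 1362. The groups overlapped in each of these sums, and the part of other cells in the results below was not tested. In bulk RNA, fewer cells of a type and less RNA per cell cannot be told apart.

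The region just before the start of a gene is where serum response factor and CREB, a pair of transcription factors activated downstream of MAP kinases, calcium and cyclic AMP, bind many immediate early genes. RefSeq promoter windows (build GRCm38.p6, another build than the GRCm39 of the deposited values) were available for 9 members, all but Dusp4. The 250 bases before the annotated start were searched on both strands for 8 motifs. The CRE palindrome TGACGTCA, the full CREB site, was present in 2 of 9 members, Dusp1 and Dusp8, against 1.55% of 32851 promoter windows. Its core TGACG was present in 4 of 9, Dusp1, Dusp5, Dusp8 and Dusp16, against 17.8%; each palindrome also holds the core on both strands. The CArG box, the site of serum response factor, was present in Dusp5 alone, against 1.47% of windows. Dusp5 held 2 CArG boxes directly next to each other, 82 to 63 bases before the start. The E-box CACGTG of the USF and MYC factors was present in Dusp1 and Dusp2, against 6.02%, and the ETS core CCGGAA in Dusp14, against 12%. The AP-1 site TGANTCA (6.75% of windows), the EGR site GCGTGGGCG (0.536%) and the TATA box TATAAA (12.4%) matched in 0 of the 9 windows. A match describes letters in the window and is not a measured binding site.

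Shown are the windows of Dusp5, for its adjacent CArG boxes, and of Dusp1 and Dusp8, the members with a CRE palindrome, of which the first was higher in irradiated cells in every pair and the second was not. Capitals mark every match to a searched motif, and each sequence runs 5′ to 3′ on the strand of its gene.
Dusp5, chr19:53528895-53529144, plus strand: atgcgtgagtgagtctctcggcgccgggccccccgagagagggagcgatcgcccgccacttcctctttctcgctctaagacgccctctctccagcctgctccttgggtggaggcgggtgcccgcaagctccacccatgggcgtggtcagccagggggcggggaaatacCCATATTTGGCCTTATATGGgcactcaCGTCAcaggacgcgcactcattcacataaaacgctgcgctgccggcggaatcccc
Dusp1, chr17:26508473-26508722, minus strand: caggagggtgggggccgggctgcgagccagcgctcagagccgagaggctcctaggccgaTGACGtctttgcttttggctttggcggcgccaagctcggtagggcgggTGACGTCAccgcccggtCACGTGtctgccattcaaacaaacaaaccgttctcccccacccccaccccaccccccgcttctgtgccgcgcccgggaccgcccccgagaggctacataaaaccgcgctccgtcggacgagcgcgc
Dusp8, chr7:142095285-142095534, minus strand: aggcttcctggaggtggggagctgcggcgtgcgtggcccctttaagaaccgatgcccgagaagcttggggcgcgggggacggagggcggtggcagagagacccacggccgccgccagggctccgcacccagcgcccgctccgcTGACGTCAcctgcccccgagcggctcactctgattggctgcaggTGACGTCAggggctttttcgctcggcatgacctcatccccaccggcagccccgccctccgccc

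**Figure D1:**
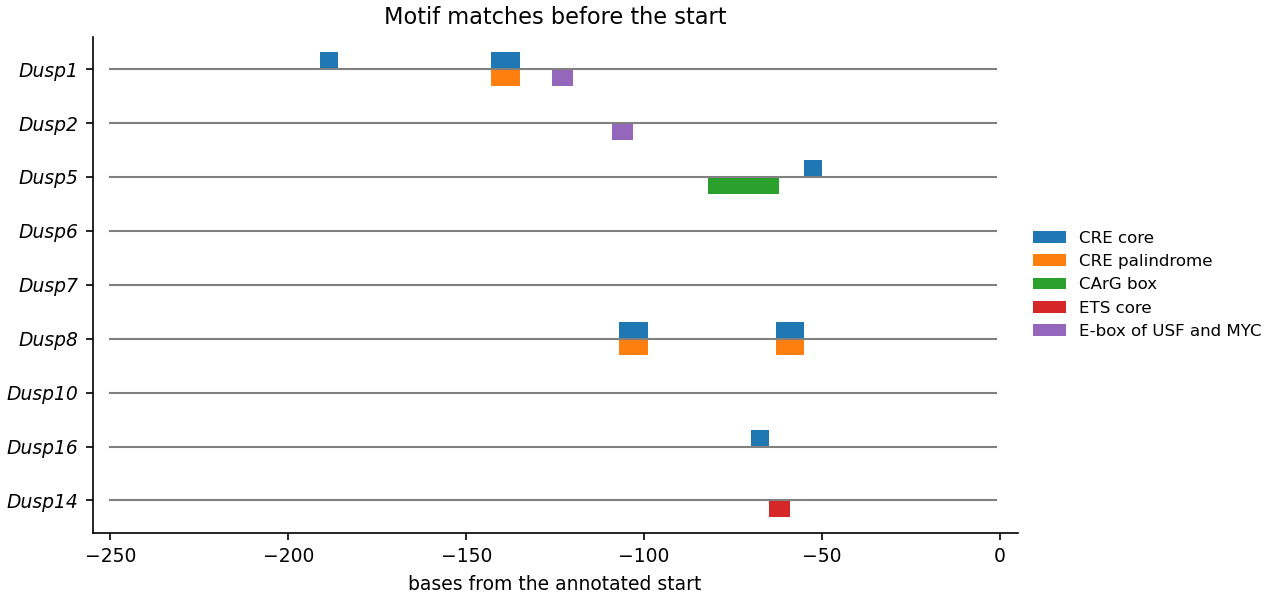
Positions of motif matches in the 250 bases before the annotated start of 9 members; the horizontal axis is the distance from the start in bases, matches to the CRE core stand above each line and all others below it. The CArG boxes lie in Dusp5, and the CRE palindromes in Dusp1 (1 match) and Dusp8 (2 matches).

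Irradiated and non-irradiated cells were compared to ask how laser light alters expression early after exposure. Among the 10 phosphatase genes, Dusp4 and Dusp5 had the smallest p-values, and Dusp1, Dusp4, Dusp5, Dusp6 and Dusp16 were higher in the irradiated library of every pair. That is 5 of 10 members, where 11.8% of the 16141 genes tested were higher in every pair. In every pair lower were 0 members, against 11% of genes. The 10 members had a median log2 value of 0.20 for irradiated over non-irradiated cells, with 8 of 10 above 0, beside a median of 0.01 and 51.5% above 0 over all genes tested. These counts describe members chosen with this contrast known. In limma with the replicate number as a block, 0 members passed an adjusted p of 0.05, and 3 of all genes did (0.0186%). At an unadjusted p under 0.05 the same 5 members were higher, beside 1.93% of all genes, and 0 members were lower. By edgeR with the block on reads recovered from the values 0 members passed, beside 2 of the 16141 genes. At an unadjusted p under 0.05 that fit held 5 members, all higher, beside 278 of the 16141 genes higher.

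**Figure D2:**
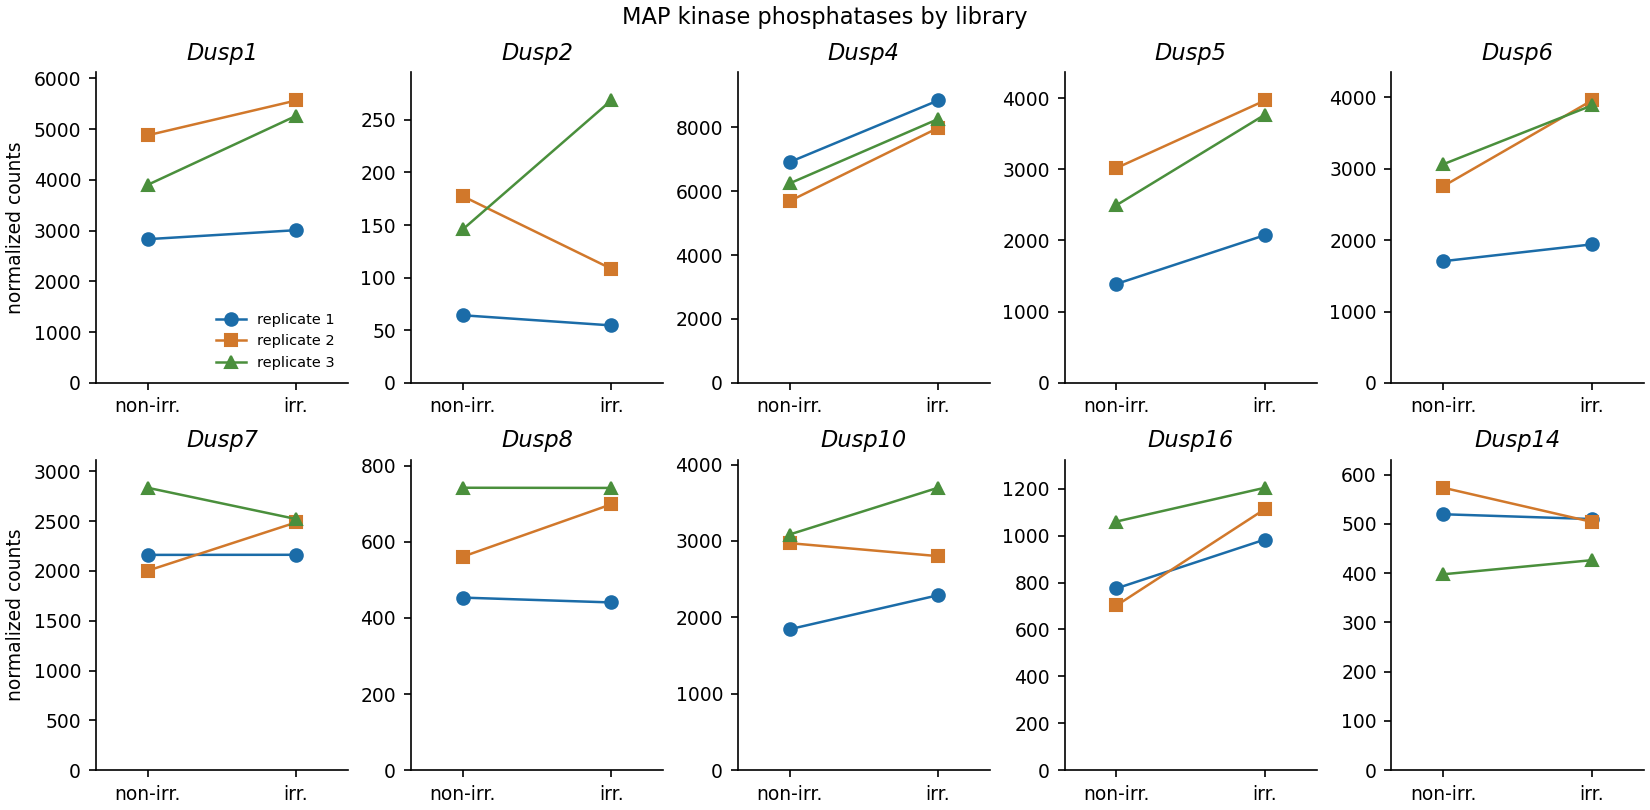
Normalized counts of each phosphatase gene (vertical axes from 0) in non-irradiated and irradiated cells; each line joins the libraries of 1 replicate number. All 3 lines go up in Dusp1, Dusp4, Dusp5, Dusp6 and Dusp16, and the line of replicate 1 lies lowest in Dusp1, Dusp2, Dusp5, Dusp6, Dusp8 and Dusp10.

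The inducible nuclear members come first. Dusp4, also called MKP-2, acts on ERK, JNK and p38 in the nucleus and had the highest level per length of the family. Its normalized counts were 6905, 5687 and 6239 in non-irradiated libraries 1 to 3 and 8833, 7974 and 8251 in irradiated libraries 1 to 3. Every irradiated library lay above every non-irradiated one, which held for 1 of 10 members and for 2.08% of all genes in this direction. The increase was 27.9%, 40.2% and 32.3% in the pairs, a log2 fold change of 0.42 ± 0.08 (SE) in limma with the block (adjusted p = 0.584, rank 15 of 16141 by p).

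Dusp5 is a nuclear phosphatase that acts on ERK alone among the MAP kinases and is itself a target of ERK signalling. It had 1390, 3018 and 2496 normalized counts in non-irradiated and 2075, 3966 and 3767 in irradiated libraries 1 to 3. Libraries of replicate 1 were the lowest of each group, and the groups overlapped, irradiated replicate 1 lying below non-irradiated replicates 2 and 3. Within the pairs it was 49.3%, 31.4% and 50.9% higher after irradiation. Its log2 fold change, 0.52 ± 0.09 (SE), was the largest of the family (limma with the block, adjusted p = 0.514, rank 10 of 16141 by p). Without the block the same fold change had an SE of 0.34 (limma, adjusted p = 0.9998). In the GENCODE M21 annotation an antisense gene, AC137853.2, overlaps 547 bases (22.1%) of the Dusp5 exons on the opposite strand. No gene of that name was among the deposited values. Since the strand setting of the counting is not given in the sources used here, any reads of it could not be told apart from those of Dusp5.

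In the authors' deposited table, whose columns are named as DESeq2 names them, Dusp5 (log2 fold change 0.52, adjusted p = 0.00380) and Dusp4 (0.42, adjusted p = 0.00619) were higher in irradiated cells. That is 2 of 10 members, beside 0.106% of genes with an adjusted p in the authors' deposited table called higher. A DESeq2 fit on the recovered reads of the tested genes with the replicate term also called these 2 members, beside 0.0929% of genes called higher. In that fit Dusp4 alone passed without both libraries of replicate 1, beside 29 of the 16141 genes called higher and 10 lower. Dusp5 alone passed without those of replicate 2, beside 12 genes higher and 7 lower. Without those of replicate 3, 0 members passed, beside 3 genes higher and 6 lower. Without the replicate term DESeq2 called 0 members, with 1 at an unadjusted p under 0.05. In limma with the block, Dusp5 passed without replicate 2 (log2 fold change 0.59, adjusted p = 0.0156), beside 18 genes called higher and 14 lower. In limma 0 members passed without replicate 1 (18 genes higher, 18 lower) or without replicate 3 (28 higher, 36 lower). Across the alternatives the adjusted p of Dusp5 ranged from 0.00389 to 1 and that of Dusp4 from 0.00747 to 1 (limma, edgeR, voom and DESeq2).

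Dusp1, or MKP-1, is the archetype of the family, an immediate early gene whose product acts in the nucleus on p38, JNK and ERK. Its normalized counts were 2833, 4880 and 3903 in non-irradiated and 3010, 5566 and 5263 in irradiated libraries 1 to 3. The groups overlapped, because both libraries of replicate 1 lay below all others. The irradiated library was 6.23%, 14.1% and 34.8% higher in the pairs, and the log2 fold change was 0.24 ± 0.09 (SE; limma with the block, adjusted p = 0.995), and 0.14 without replicate 3. Dusp1 shares 11 exonic bases with Ergic1 on the opposite strand. Dusp2, or PAC-1, a nuclear phosphatase best known from activated lymphocytes, was the least abundant member. It had 64.3, 177.5 and 145.8 normalized counts in non-irradiated and 54.7, 108.6 and 268.4 in irradiated libraries 1 to 3, from 50 to 279 reads. Its pairs went in different directions, with log2 ratios of -0.23, -0.70 and 0.88, and the mean was -0.02 ± 0.47 (SEM, n = 3).

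Dusp6 and Dusp7 encode cytoplasmic phosphatases that prefer ERK. Dusp6, or MKP-3, is a widely used readout of ERK activity. It had 1705, 2756 and 3063 normalized counts in non-irradiated and 1940, 3955 and 3885 in irradiated libraries 1 to 3. Replicate 1 was again lowest in both groups and made them overlap. The pairs were 13.8%, 43.5% and 26.8% higher after irradiation, a log2 fold change of 0.35 ± 0.10 (SE; limma with the block, adjusted p = 0.995, and adjusted p = 0.610 in the authors' deposited table). Dusp7, also called MKP-X, had 2002 to 2835 normalized counts in non-irradiated and 2162 to 2521 in irradiated libraries, and its pairs had log2 ratios of 0.00, 0.31 and -0.17. Its irradiated values lay within the range of the non-irradiated ones.

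Dusp8, Dusp10 and Dusp16 prefer JNK and p38 over ERK. Dusp16, or MKP-7, had 774.9, 702 and 1060 normalized counts in non-irradiated and 983.2, 1113 and 1204 in irradiated libraries 1 to 3. Non-irradiated replicate 3 lay above irradiated replicate 1, so the groups overlapped. The pairs were 26.9%, 58.6% and 13.6% higher, a log2 fold change of 0.40 ± 0.13 (SE; limma with the block, adjusted p = 0.995), and 0.26 without replicate 2. Dusp10, or MKP-5, had 1844 to 3084 normalized counts in non-irradiated and 2289 to 3696 in irradiated libraries, with log2 ratios of 0.31, -0.08 and 0.26. Dusp8 had 453.5 to 742.2 and 440.8 to 741.7 normalized counts, and its log2 ratio was above 0 in pair 2 alone (0.32). Dusp14, or MKP-6, is an atypical member that lacks the kinase-docking domain of the others. It had 397.6 to 573.2 and 426.2 to 509.7 normalized counts and a mean log2 ratio of -0.04 ± 0.08 (SEM, n = 3).

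**Figure D3:**
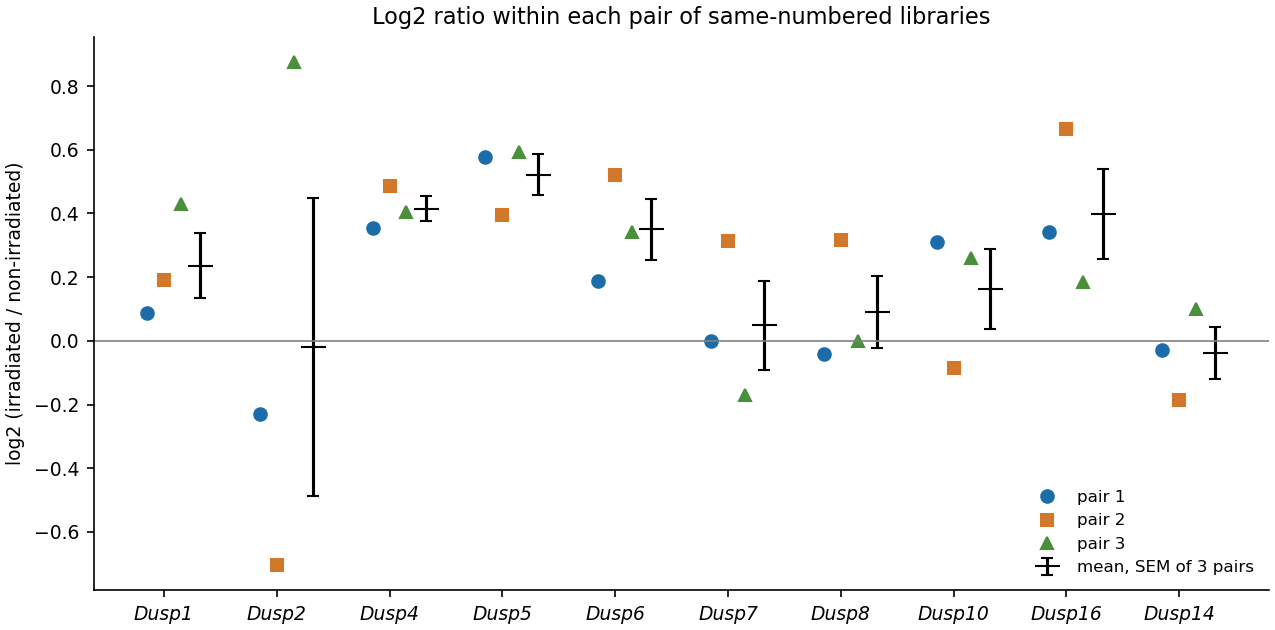
Log2 ratio of irradiated to non-irradiated normalized counts (plus 1) within each pair of same-numbered libraries, by gene, with the mean and SEM of 3 pairs. The ratios of Dusp4 lie between 0.36 and 0.49 and those of Dusp5 between 0.39 and 0.59, while those of Dusp2 run from -0.70 to 0.88.

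The members differed in how even their ratios were. For Dusp4 the SEM over the 3 pairs was 0.04 and for Dusp5 0.06. It was 0.08 for Dusp14, 0.10 for Dusp6 and Dusp1, 0.11 for Dusp8 and 0.12 for Dusp10. For Dusp7 and Dusp16 it was 0.14, and for Dusp2 0.47. An even ratio favours a small p-value in a paired fit, and Dusp4 and Dusp5 were known as leading genes when the family was chosen. Their evenness is thus part of that choice and carries no separate weight. The pair with the highest ratio was not the same throughout. It was pair 2 for Dusp4, Dusp6, Dusp7, Dusp8 and Dusp16, pair 3 for Dusp1, Dusp2, Dusp5 and Dusp14, and pair 1 for Dusp10.

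Differences between the replicate numbers, which did not serve to choose the members, were tested in the same limma fit with an F test. That test uses the same residual variance as the irradiation test, so it is not wholly separate from the choice. Of 10 members 6 differed between replicate numbers, namely Dusp5 (adjusted p = 0.00108), Dusp6 (0.00209), Dusp1 (0.00420), Dusp10 (0.0162), Dusp2 (0.0423) and Dusp8 (0.0438), where 13.4% of all genes did. All 6 were lowest in replicate 1. Of the 2165 genes that differed between replicate numbers, 45.6% were lowest in replicate 1, 35% in replicate 2 and 19.4% in replicate 3. Replicate 1 lay below the mean of the other numbers by a log2 difference of -0.94 for Dusp5, -0.89 for Dusp6, -0.73 for Dusp1, -0.60 for Dusp10, -1.47 for Dusp2 and -0.61 for Dusp8. Dusp4 did not pass (adjusted p = 0.312 in limma) and was highest in replicate 1, by 0.17 on the log2 scale. Dusp7, Dusp14 and Dusp16 did not pass either. The count was 3 without a filter on low values, 0 in limma without a trend, and 0 without both libraries of replicate 1. The share of all genes that differed was not counted in those fits, so these counts have no such share beside them.

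The size of these differences can be set beside the irradiation ratios. For Dusp5 the replicate means spanned 1.03 on the log2 scale, beside an irradiation log2 fold change of 0.52. For Dusp6 the span was 0.92 beside 0.35, and for Dusp1 0.84 beside 0.24. For Dusp4 it was 0.21 beside 0.42, and for Dusp16 0.37 beside 0.40. For Dusp4 the irradiation value stayed above that span with any pair left out, at 0.38 to 0.45. For Dusp16 it was 0.26 without replicate 2, below its span.

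Levels were compared between genes per kilobase of exon, with exon lengths of GENCODE M21. Dusp4 stood highest, with 2670 ± 450 normalized counts per kb (SD over 6 libraries), and its range did not overlap that of Dusp1, at 1281 ± 353. Dusp5 followed at 1126 ± 402, Dusp6 at 921 ± 302, Dusp10 at 914 ± 212 and Dusp7 at 704 ± 91.9. Neighbours from Dusp1 to Dusp7 overlapped in range. Dusp1 was above Dusp5, and Dusp5 above Dusp6, in each of 6 libraries, whereas Dusp6 was above Dusp10 in 2 of 6. Dusp14 at 251 ± 33.3 stood apart from both neighbours. Dusp16 at 125 ± 25.2 and Dusp8 at 125 ± 28.8 were not distinct, each being the higher one in 3 libraries, and Dusp2 came last at 68.2 ± 39.9.

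Added over the 10 members, the level was 6224, 7812 and 7867 normalized counts per kb in non-irradiated and 7494, 9719 and 9991 in irradiated libraries 1 to 3. The sum was 20.4%, 24.4% and 27% higher within the pairs, while irradiated replicate 1 lay below non-irradiated replicates 2 and 3. It holds Dusp4 and Dusp5, which stood among the leading genes when the family was chosen. The share of each in the sum was higher in the irradiated library of every pair. Dusp2, Dusp7, Dusp8, Dusp10 and Dusp14 were not themselves higher in every pair, so the sum does not describe each member. Dusp4 made up 40.5% and 43.0% of the sum in the libraries of replicate 1 and 26.6% to 30.1% in the other 4. The nuclear members Dusp1, Dusp2, Dusp4 and Dusp5 together made up 63.8%, 62.2% and 57.7% of the sum in non-irradiated libraries 1 to 3 and 66.7%, 64.3% and 62.6% in the irradiated ones. The share of Dusp8, Dusp10 and Dusp16 was 12.8%, 15.1% and 16.6% in non-irradiated and 12.9%, 12.4% and 15.2% in irradiated libraries.

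**Figure D4:**
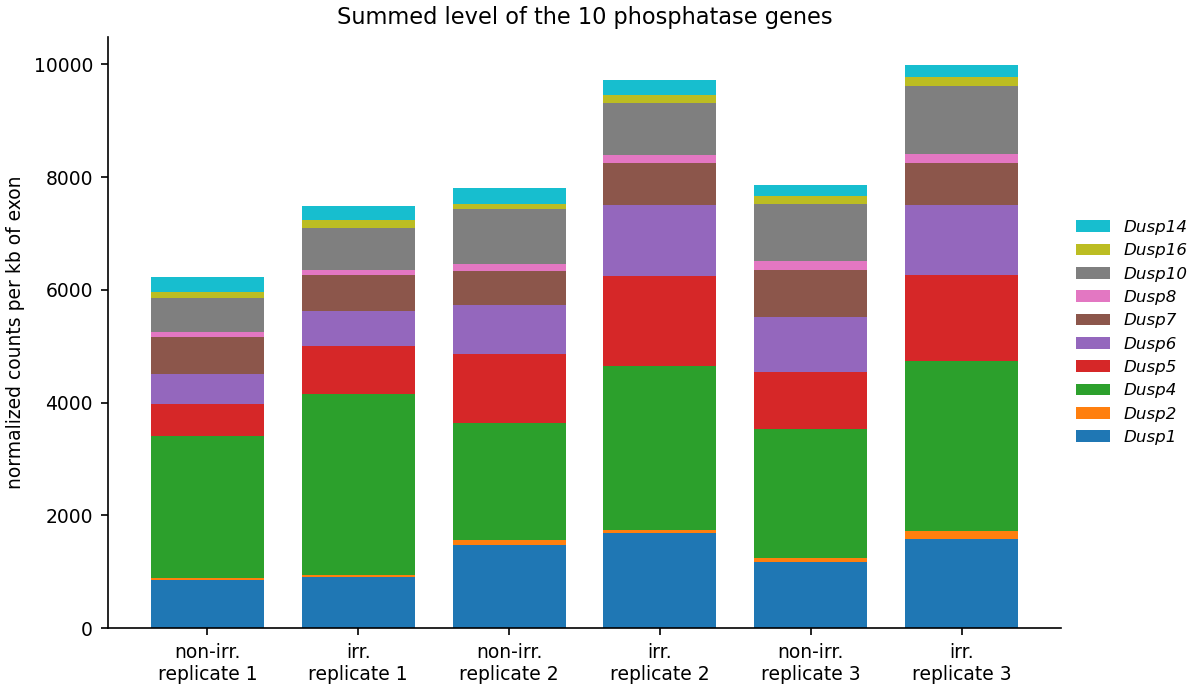
Summed level of the 10 phosphatase genes in each library, in normalized counts per kb of exon, stacked by gene and ordered by pair. Each irradiated bar is higher than its non-irradiated partner, and Dusp4 is the tallest segment in all 6 libraries. The members were chosen with this contrast known.

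Genes around the phosphatases in the pathway were taken from 6 lists of 67 genes, of which 59 were tested. The lists were chosen with earlier results of these data known, so their values are given as a description. In limma with the block 0 of the 59 passed, 4 had an unadjusted p under 0.05, all 4 with the higher value in irradiated cells, and 15 were higher and 2 lower in every pair. Over all genes tested the shares were 1.93% higher at an unadjusted p under 0.05, 11.8% higher in every pair and 11% lower in every pair, against which the counts of each list below are to be read. Of 14 other dual-specificity phosphatases 10 were tested, and 0 were higher or lower in every pair (median log2 fold change 0.08). Dusp11, an RNA phosphatase, had 5354, 3855 and 5198 normalized counts in non-irradiated and 5280, 4985 and 5806 in irradiated libraries. Dusp3, a small phosphatase that also acts on MAP kinases, had 2962, 3545 and 3846, and 3538, 3773 and 3806. Of 6 tested phosphatases of other families that act on MAP kinase pathways, 1 was higher in every pair, Ppm1b (log2 fold change 0.08 ± 0.09, SE), and Ppm1d, a p53-induced phosphatase, stood at -0.08 ± 0.13.

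The kinases themselves and those above and below them came next. Of 11 MAP kinases tested 3 were higher in every pair, and the median log2 fold change was -0.01. Mapk6, which encodes the atypical kinase ERK3, had 8682, 9982 and 10155 normalized counts in non-irradiated and 9388, 12581 and 13249 in irradiated libraries 1 to 3 (log2 fold change 0.28 ± 0.08, SE; limma with the block, adjusted p = 0.995). Mapk8, which encodes JNK1, stood at 0.18 ± 0.10. Of 13 RAS, RAF and MAP kinase kinase genes 4 were higher in every pair, with a median of 0.05, and Map2k4, a kinase that activates JNK, stood at 0.14 ± 0.08. Of 11 kinases activated by MAP kinases 3 were higher and 2 lower in every pair, with a median of 0.01. Mapkapk3, a p38 target, stood at 0.21 ± 0.11 and Rps6ka2, an ERK target, at 0.17 ± 0.09.

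Genes read out as ERK pathway output, phosphatases left out, stood at a median of 0.16 on the log2 scale over 8 genes. Epha2, Phlda1, Spry2 and Spry4 were higher in every pair, and 0 were lower in every pair. This list too was chosen with earlier results of these data known, and its values carry no independent weight. Epha2, an ephrin receptor, had 3502, 5859 and 5748 normalized counts in non-irradiated and 3924, 8136 and 7823 in irradiated libraries 1 to 3 (log2 fold change 0.36 ± 0.09, SE; limma with the block, adjusted p = 0.995). Phlda1 had 2434, 5540 and 4822, and 3045, 6307 and 6355, with a log2 fold change of 0.30 ± 0.09. In both genes replicate 1 was the lowest of each group, as in Dusp5 and Dusp6. Spry4, a feedback inhibitor of receptor tyrosine kinase signalling named here after its values were seen, stood at 0.45 ± 0.15. Etv4 and Etv5, ETS factors of the same output set and also named after their values were seen, stood at 0.01 ± 0.09 and 0.10 ± 0.10.

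For Dusp4, Dusp5 and Dusp6, the genes of most similar pattern over the 6 libraries were sought among 11876 genes, by the root mean square difference of log2 values centred on each gene's mean. This measure uses all 6 libraries and so takes in both irradiation and replicate differences. Closest to Dusp4 were B3gnt2 (difference 0.08), Parp11 (0.09) and Lins1 (0.10), beside a root mean square of 0.23 of Dusp4 itself. Closest to Dusp5 were Fam110c (0.07), Slfn2 (0.09) and Dyrk3 (0.12), beside 0.52. Closest to Dusp6 were Epha2 (0.05), Arl4c (0.06) and Epas1 (0.07), beside 0.46. Fam110c had 1743, 3449 and 3021 normalized counts in non-irradiated and 2304, 4379 and 4251 in irradiated libraries 1 to 3. Its low level in replicate 1 and its higher irradiated values follow from the search, which picked genes for their likeness to Dusp5. Within the family, Dusp5 and Dusp6 were 0.17 apart, as were Dusp6 and Dusp1, and the member nearest to Dusp4 was Dusp16, at 0.22.

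**Figure D5:**
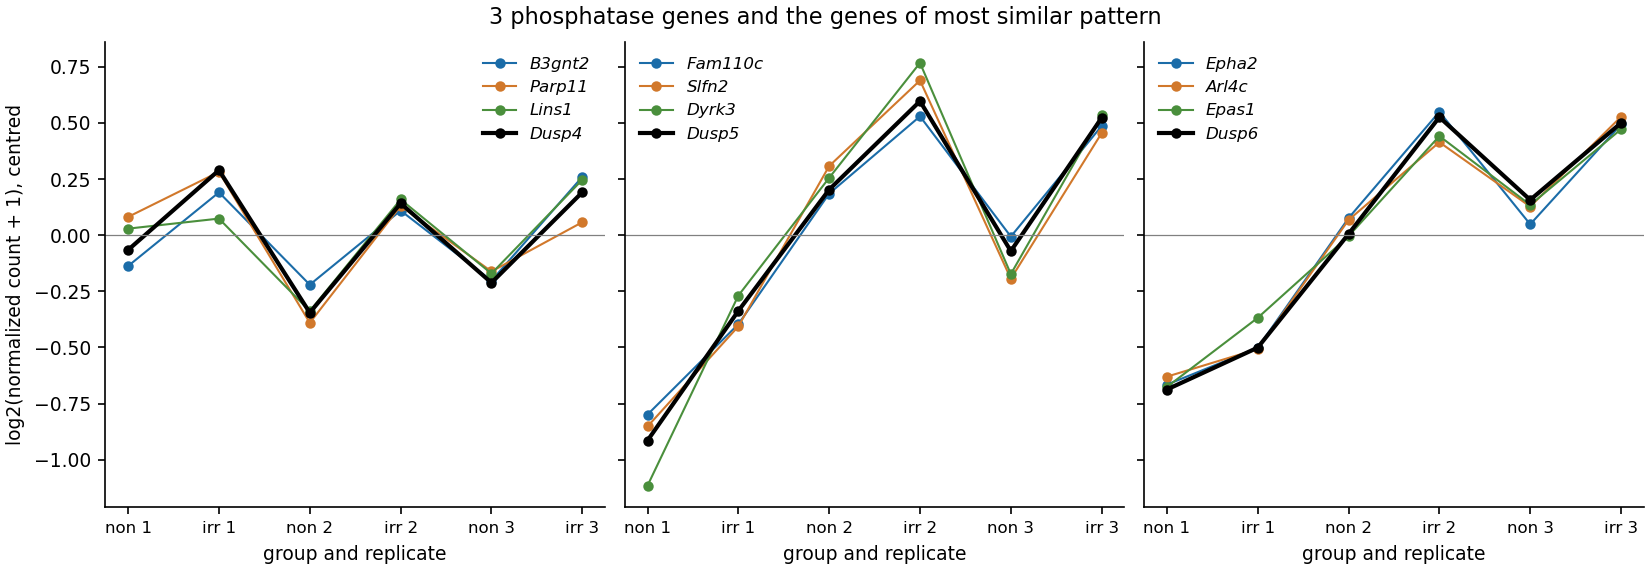
Log2(normalized count + 1), centred on each gene's mean, in the 6 libraries ordered by replicate number, for Dusp4, Dusp5 and Dusp6 (black) and the 3 genes most like each. Dusp5 and Dusp6 run low in both libraries of replicate 1, whereas Dusp4 steps up from the non-irradiated to the irradiated library in each pair around a level that varies less.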

How the data were processed

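RNA-seq of 6 libraries was used. Per the submitters' processing notes, the tools were HISAT2 2.2.1, StringTie 2.1.7, Trimmomatic 0.39 and FastQC 0.11.9, and the build was GRCm39; the sources used here give neither settings, strandedness nor annotation release. The authors deposited normalized counts, a signal whose values are those of gene counts divided by 1 factor per library, and, under column names that DESeq2 uses, per the file headers, log2 fold changes, their standard errors, a test score, a p-value and an adjusted p-value per gene. Of 20745 rows, 80 repeated an identifier and were dropped. Division by the value of 1 read in each library recovered whole reads, within 0.001, in 100% of values.

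The 16141 genes that reached 10 normalized counts in 3 or more libraries were fitted in limma 3.58.1 (R 4.3.3) on a log2 scale with a pseudocount of 1 (trend, 2-sided, Benjamini-Hochberg over all genes tested, threshold 0.05), with the replicate number as a block and 2 residual degrees of freedom. Changes of genes at low level come out too small on such a scale. The numbers come from the sample titles; treating equal numbers as pairs comes from the rule that defined the members, not from the labels. Over 13054 genes, libraries of equal number deviated together from their group means (correlations of 0.642, 0.474 and 0.567, and at most 0.0129 for unequal numbers). Deviations from a mean of 3 libraries add up to 0, so positive values for equal numbers lower those for unequal numbers, and the gap is partly built in. A DESeq2 1.42.0 refit with the replicate term came within 0.000861 of the deposited log2 fold changes, and the block was kept. The members, gene lists, tests and the naming rule were chosen with earlier results of these data known. The rule names all members, up to 2 genes of smallest p per list where none passed, and the 3 genes most like Dusp4, Dusp5 and Dusp6 among those whose mean reached 50 normalized counts, unnamed gene models left out; some genes the rule names are not reported here. Alternatives were other pseudocounts, filters, scalings and limma settings, no block, leaving out each pair, and the recovered reads fitted in edgeR 4.0.16, voom and DESeq2. Exon lengths came from GENCODE M21 by gene identifier.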

Additional observations from a re-analysis of the deposited data

How the results depend on the processing

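The count of members past the threshold was 0 in limma with the replicate block and stayed 0 in limma without it (no replicate block), under each other pseudocount, filter, scaling and limma setting, and in edgeR and voom. It was 2 in DESeq2 with the replicate term, and with pairs left out in turn it ranged from 0 to 1 in limma; in DESeq2, a set of fits added after seeing the data, it was 1 without replicate 1, 1 without replicate 2 and 0 without replicate 3. Of the pathway genes 1, Epha2, was called in DESeq2 without replicate 1, beside 29 of the 16141 genes called higher and 10 lower. In every other fit run 0 pathway genes were called. The count of members that differed between replicate numbers, 6, was 3 without a filter on low values and 0 in limma without a trend. It ranged from 0 to 6 with pairs left out, and each left-out fit has 1 pair fewer and 4 libraries. The share of all genes that differed was not counted in these alternatives. Over all genes limma called 3 with the replicate block and 0 without it, with 526 and 132 at an unadjusted p under 0.05. The 5 members higher in every pair numbered 5 under each of 3 other scalings. Dusp1, Dusp4, Dusp5, Dusp6, Dusp10 and Dusp16 kept a positive log2 fold change in all 21 alternatives, but some sizes changed with 1 pair left out. In limma Dusp1 stood at 0.1385 without replicate 3 (0.2361 as reported) and Dusp16 at 0.2634 without replicate 2 (0.3971). Dusp10 stood at 0.0883 without replicate 1 and 0.2864 without replicate 2 (0.1627).

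Signs turned in members near 0. Dusp2 (-0.02 as reported) had a log2 fold change of 0.0146 with quantile normalization, 0.1113 in voom, 0.1433 in edgeR and 0.1506 in DESeq2 without the replicate block, 0.0777 in DESeq2 without replicate 1 and 0.3493 without replicate 2, and -0.4669 to 0.3232 in limma with pairs left out. Without replicate 2, DESeq2 gave -0.081 for Dusp7, -0.0174 for Dusp8 and 0.0393 for Dusp14; limma with pairs left out gave -0.084 to 0.1571, -0.0209 to 0.1574 and -0.1065 to 0.0362. The cause was not tested. Dusp2 was counted with 50 to 279 reads and the other members with 360 or more, and the part of depth was not tested.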
